A study of Mus musculus with 2 samples.

Results

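The genes described here act on extracellular and intracellular adenosine. They are Entpd1, Nt5e, Slc28a2, Slc29a1, Ada, Adk, Pnp, Adora2a and Adora2b, 9 of the 31053 features measured, and they were chosen by symbol for their roles in producing, carrying, clearing and sensing adenosine. Single-cell RNA-sequencing (10x Genomics 3′ chemistry) was performed on all cells sorted as live from the upper small bowel (proximal small intestine) of 2 mice labelled APC. Both mice carried Apc fl/fl and the tamoxifen-inducible Cre of the Villin promoter (VilCreER), which acts in intestinal epithelium. They received 2 injections of 2 mg tamoxifen 24 h apart and were sampled on day 4. There was no untreated or wild-type group, so all comparisons are between cell classes within the same mice, and the 2 mice are the replicates (n = 2).

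Extracellular ATP and ADP are converted to AMP by the ectonucleotidase CD39, encoded by Entpd1, and AMP is converted to adenosine by the ecto-5′-nucleotidase CD73, encoded by Nt5e. Adenosine is also released inside cells when adenosylhomocysteinase, the product of Ahcy, splits S-adenosylhomocysteine. It crosses membranes through concentrative carriers such as that of Slc28a2 or equilibrative carriers such as that of Slc29a1, is deaminated to inosine by adenosine deaminase (Ada) or phosphorylated to AMP by adenosine kinase (Adk), and inosine is split further by purine nucleoside phosphorylase (Pnp). The receptors encoded by Adora2a and Adora2b sense it at the cell surface, and signalling through Adora2a is known for restraining T cells.

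After filtering for more than 100 genes, more than 400 unique molecular identifiers (UMIs), under 5% mitochondrial and under 10% haemoglobin UMIs, 7941 of 9645 barcodes were kept in mouse 1 and 6957 of 8800 in mouse 2, with median depths of 4381 and 2803 UMIs. The libraries shared 24 barcode sequences, 16 among the kept cells. Clusters were built without the 9 genes or the other purine genes and were named from marker lists, which gave 15 classes that held 20 cells or more per mouse: 3 epithelial and 12 leukocyte. A further 1897 and 605 cells had no class name and entered no comparison. Their largest group (1295 and 330 cells) showed 5 of 7 plasma cell markers, but had an eosinophil marker, Prg2, among its leading genes. That group held 986 of the 2978 Entpd1 UMIs of mouse 1 and 261 of the 1486 of mouse 2. Each class name below stands for cells like that type. Enterocytes (590 and 142 cells) showed 9 of 10 enterocyte markers in each sub-cluster and crypt cells (117 and 29 cells) 12 of 14 crypt markers. A large group of T cells (1493 and 2952 cells) had all 7 general T cell markers but no subset name, and is called unassigned T cells. UMIs of Trdc, a gamma-delta receptor gene, were seen in 48.8% to 66.2% of the cells of its sub-clusters. This share was 84.1% and 77.1% in the gamma-delta sub-clusters and 4.24% in that of CD8 alpha-beta T cells. Gamma-delta T cells below are therefore only the named ones, and the unassigned T cells may hold many more. Dendritic and plasma cells were deep in both mice, with median UMI counts 3.6 times or more those of all kept cells of their mouse. Monocytes (236 and 274 cells) showed 7 of 8 monocyte markers and also all 10 macrophage markers, and were named from their leading genes. The monocyte and macrophage classes may thus not be cleanly parted. Pancreatic acinar cells were seen in mouse 1 only (194 cells) and entered no comparison. Conventional CD4 T cells are a single sub-cluster of 50 and 21 cells led by Izumo1r, with Cd4 UMIs in 35.2% of its cells. This sub-cluster also showed 5 of the 7 Treg markers, with Foxp3 UMIs in 7.04% and Trdc UMIs in 25.4% of its cells. Treg cells are one of 41 and 21 cells with Foxp3 UMIs in 80.6%, and Izumo1r was among their leading genes too. The conventional CD4 class may thus not be free of other T cells. A further sub-cluster (76 and 87 cells) had all 7 conventional CD4 markers but was led by Ncr1 and held 3 of the 4 natural killer markers scored, and it was left without a name. Apc itself was read at 57 and 70.9 CPM (UMIs of a gene scaled to a common total of UMIs) in crypt cells, 78.2 and 51.6 in enterocytes and 26.9 and 38.3 in leukocytes. Since these reads come from the 3′ end of the transcript, they cannot show whether the floxed part was lost.

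All 9 genes had UMIs in both mice, with the fewest for Adora2b (135 and 67) and the most for Pnp in mouse 1 (3307) and for Nt5e in mouse 2 (3059). Levels are given as CPM of the UMIs summed over the cells of a class in a mouse. This scale is not divided by gene length, which 3′ counting does not need, but levels of different genes also differ in capture, and comparisons are made between classes for the same gene. Intervals and limits of detection cover counting error only.

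The promoters of Nt5e and Slc28a2, whose levels were highest across the T cell subsets, and of Ada, which was highest in enterocytes, are shown because these genes divide the lymphocyte side from the epithelial side of the adenosine route. Each window runs from 250 bases before to 50 after the RefSeq start of the gene (GRCm38.p6), on the strand of the gene, and capitals mark matches to 5 short motifs searched on both strands: CTTTGAT, known from TCF/LEF proteins, TGTGGT, known from the RUNX family, AGATAA, known from the GATA family, GTTAAT, known from HNF1 proteins, and CCGGAA, known from the ETS family. RefSeq windows were found for 8 of the 9 genes, all except Adora2a.
Nt5e, chr9:88327359-88327658, plus strand, no match: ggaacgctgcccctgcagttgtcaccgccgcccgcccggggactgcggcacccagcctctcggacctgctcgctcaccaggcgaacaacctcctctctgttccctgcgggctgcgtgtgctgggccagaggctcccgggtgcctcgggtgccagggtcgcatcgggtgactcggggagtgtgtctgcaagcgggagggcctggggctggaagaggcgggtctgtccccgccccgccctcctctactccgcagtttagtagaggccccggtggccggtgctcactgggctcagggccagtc
Slc28a2, chr2:122426185-122426484, plus strand, RUNX on the minus strand from base 21, GATA from base 86 and HNF1 from base 248: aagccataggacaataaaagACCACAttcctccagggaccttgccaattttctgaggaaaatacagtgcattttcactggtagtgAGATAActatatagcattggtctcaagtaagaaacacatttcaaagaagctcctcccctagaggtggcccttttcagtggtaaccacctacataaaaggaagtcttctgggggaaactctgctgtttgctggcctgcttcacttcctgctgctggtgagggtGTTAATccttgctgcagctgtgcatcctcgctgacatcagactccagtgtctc
Ada, chr2:163750190-163750489, minus strand, ETS from bases 63 and 223 and, on the minus strand, from base 161: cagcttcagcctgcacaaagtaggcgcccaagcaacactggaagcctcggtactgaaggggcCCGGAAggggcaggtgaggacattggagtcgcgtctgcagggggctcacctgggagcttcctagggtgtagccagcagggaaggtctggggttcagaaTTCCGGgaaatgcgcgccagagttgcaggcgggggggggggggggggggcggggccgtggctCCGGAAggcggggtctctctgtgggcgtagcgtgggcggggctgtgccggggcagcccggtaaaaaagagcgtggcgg
Among 32544 mouse promoter windows, 16.7% held the RUNX letters, 11.2% GATA, 7.13% HNF1, 15.0% ETS and 3.73% TCF/LEF. These matches describe the letters in the windows and are not shown to be sites of any factor. The GC content was 68.0% in the Ada window and 71.0% in that of Nt5e, against 46.7% in that of Slc28a2.

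Entpd1 (chr19:40612366-40741602, plus strand) was highest in macrophages, at 99 CPM in mouse 1 and 95.1 in mouse 2. Unassigned T cells followed at 70.3 and 71.7 CPM, and no other of the 15 classes reached either of these in any mouse. Neutrophils, left out of the 15 classes with 18 and 9 cells, read 167 and 159 CPM from 10 and 6 UMIs. Plasma cells (42.8 and 41.5 CPM), plasmacytoid dendritic cells (42.8 and 40 CPM) and monocytes (45.6 and 35.2 CPM) overlapped with one another. Among the named T cell subsets the levels were lower, at 18.1 and 22.5 CPM in gamma-delta T cells, 3.7 and 9.82 in CD8 alpha-beta T cells and 6.92 and 0 in conventional CD4 T cells. Regulatory T (Treg) cells held 45.3 CPM in mouse 1 and 13 in mouse 2, a spread that covered the levels of B cells and gamma-delta T cells. In the epithelium Entpd1 was nearly unread, with 6 UMIs in 590 enterocytes of mouse 1 and 0 in 142 of mouse 2, where a count of 0 allows up to 4.69 CPM.

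Nt5e (chr9:88327197-88372092, plus strand) had a different order, and all 6 T and innate lymphoid classes stood above every other class in both mice. Treg cells read highest, at 244 and 286 CPM, from 43 and 22 UMIs in 41 and 21 cells. In them 50% of the Nt5e UMIs came from 5 and 3 cells. The Treg counting intervals (176 to 328 and 179 to 433) held the values of unassigned and gamma-delta T cells. Unassigned T cells held 184 and 203 CPM, gamma-delta T cells 186 and 195, and innate lymphoid cells 133 and 214, and these overlapped. CD8 alpha-beta T cells (145 and 141 CPM) lay within the spread of the innate lymphoid cells, and conventional CD4 T cells (100 and 117 CPM) were lowest of these classes. The next class, B cells, held 11 and 15.6 CPM, and macrophages, monocytes and dendritic cells lay between 6.74 and 11.9 CPM in the 2 mice. Enterocytes had 6 Nt5e UMIs in mouse 1 and none in mouse 2, and crypt cells had 5 and 1 UMIs (2.82 and 1.82 CPM). Within gamma-delta T cells, the sub-cluster led by Tcf7 and Kit held 252 and 253 CPM of Nt5e, against 131 and 145 in the sub-cluster led by Gzmk and Trdc. The Gzmk sub-cluster showed 6 of 7 CD8 alpha-beta and 4 of 6 gamma-delta markers, against 3 of 7 and 5 of 6 in the Tcf7 sub-cluster. Its Nt5e level was near that of CD8 alpha-beta T cells. The 2 sub-clusters did not overlap and had similar median depths in each mouse (3598 and 2900 UMIs against 3392 and 2509). Clusters are formed on the cells themselves, so this difference is a description.

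Both genes of the route from ATP to adenosine were high together in the unassigned T cells. In them 124 of 1493 cells (8.31%) and 196 of 2952 (6.64%) had a UMI of each gene, and the product of the shares with each gene alone was 7.3% and 6.42%. In gamma-delta T cells the share was 3.83% and 3.23%, and in macrophages 1.78% and 2.13%. Treg cells had the largest share in mouse 1 (5 of 41 cells, 12.2%) and none in mouse 2 (0 of 21). As a level that stray RNA may reach, 0.678% of the 590 enterocytes of mouse 1 and 0% of the 142 of mouse 2 held a UMI of Nt5e, at median depths of 5111 and 3052 UMIs, beside 44% and 38.2% of gamma-delta T cells at 3496 and 2669 UMIs.

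**Figure D1:**
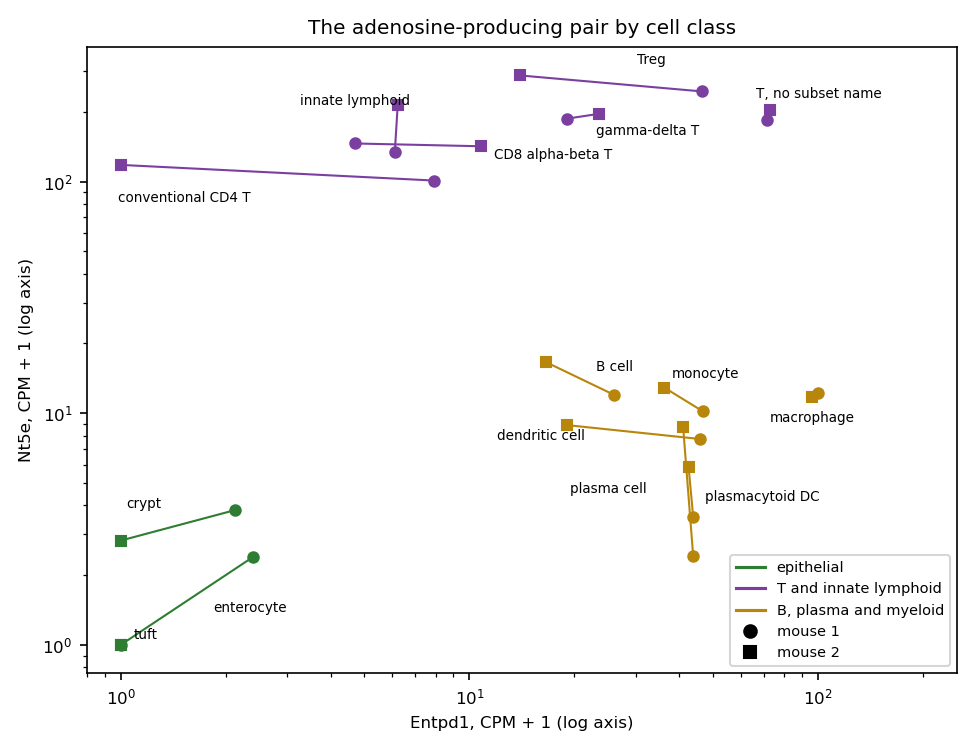
Level of Nt5e (vertical, CPM + 1, log axis) against Entpd1 (horizontal, CPM + 1, log axis) in 15 cell classes. Each class is a circle (mouse 1) joined to a square (mouse 2). The T and innate lymphoid classes lie at 100 CPM of Nt5e or more, the B, plasma and myeloid classes at 15.6 CPM or less with Entpd1 from 15.6 to 99 CPM, and the epithelial classes at the lower left.

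Slc28a2 (chr2:122426477-122461137, plus strand), a sodium-dependent concentrative carrier that prefers purine nucleosides, was highest in unassigned T cells at 86.6 and 114 CPM. Gamma-delta T cells came next at 53.6 and 66.3 CPM, without overlap with unassigned T cells. Conventional CD4 T cells (45 and 51.1 CPM), CD8 alpha-beta T cells (41.9 and 52.4) and Treg cells (34 and 52) read lower and overlapped with one another. They were not clearly apart from gamma-delta T cells. The counting intervals of conventional CD4 T cells (23.9 to 76.9 and 20.6 to 105) and Treg cells (12.5 to 74 and 14.2 to 133) held the gamma-delta values. So did that of CD8 alpha-beta T cells in mouse 2 (38.6 to 69.4). B cells held 23.9 and 28 CPM and macrophages 19.5 and 18.8, whereas monocytes and dendritic cells read at 6.4 CPM or less. Enterocytes held 2.57 and 4.69 CPM, from 11 and 3 UMIs, and crypt cells 1.13 and 0. Of the 411 stretches of 90 bases in the last 500 bases of the Slc28a2 transcript, 154 (37.5%) also lie in the gene model Gm14085, so reads could be lost between them. With both summed, Slc28a2 kept the calls given below in the comparisons of crypt cells with enterocytes, myeloid with T cells and epithelium with leukocytes.

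Slc29a1 (chr17:45585200-45599606, minus strand), the equilibrative carrier ENT1, had another order among the leukocytes, although conventional CD4 T cells and Treg cells held both carriers. Macrophages held 66.2 and 63 CPM and read highest in both mice. Conventional CD4 T cells followed at 55.4 and 51.1 CPM, from 16 and 7 UMIs. Their counting intervals (31.6 to 89.9 and 20.6 to 105) held the macrophage values. Treg cells read 45.3 and 26 CPM from 8 and 2 UMIs, within counting error of conventional CD4 T cells. The spread of Treg cells between the mice covered that of monocytes (34.4 and 30). Dendritic cells held 27.4 and 23.7 CPM. Unassigned T cells, which led for Slc28a2, held 8.49 and 13.2 CPM, and gamma-delta T cells 11 and 12.6. Crypt cells held 4.51 and 10.9 CPM from 14 UMIs in all. Enterocytes had 3 UMIs in all, at 0.701 and 0 CPM, and B cells and plasma cells were also below 1.5 CPM.

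Ada (chr2:163726584-163750239, minus strand) was read mainly in enterocytes, at 136 CPM in mouse 1 (95% interval 125 to 147) and 272 in mouse 2 (233 to 315). All other classes were at 18.3 CPM or less. Crypt cells at 17.5 and 10.9 CPM, macrophages at 13.9 and 12.1 and dendritic cells at 13.5 and 11.3 overlapped. No T cell class exceeded 9.82 CPM. Treg cells had no Ada UMI, which allows up to 17 CPM in mouse 1 and 39 in mouse 2, and conventional CD4 T cells had none either. Per 1000 UMIs of a list of enterocyte markers, 3.84 and 3.01 Ada UMIs were read in enterocytes, 43.6 and 4.46 in crypt cells, 8.93 and 0 in tuft cells, 53.3 and 360 in macrophages and 242 and 846 in plasma cells. In crypt cells of mouse 2 this ratio was near that of enterocytes, and the part of stray enterocyte RNA in these levels was not tested.

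Within enterocytes Ada was unevenly spread. Only 132 of 590 enterocytes in mouse 1 and 25 of 142 in mouse 2 held an Ada UMI, and 50% of the Ada UMIs came from 10 and 6 cells. A single cell of mouse 1 held 122 of its 581 Ada UMIs. By comparison, 50% of the Pnp UMIs in the same classes came from 83 and 18 cells. A sub-cluster led by Ada, Aspa, Gda, Krt20 and Klf4 (85 and 49 cells) held 1950 and 1700 CPM of Ada, and with 14.4% and 34.5% of the enterocytes it carried 56.1% and 91.4% of their Ada UMIs. Krt20 and Klf4 are known to mark the upper villus. The sub-cluster led by Gsta1, Pla2g4c and Mgat4c, which held the highest level of the villus-bottom list, had 10.9 and 13.3 CPM. The sub-cluster led by Cyp3a13, Apoa1 and Apoa4 lay between these at 77.4 and 63.7 CPM. In that led by Fabp2, Fabp1 and Rbp2 the mice differed widely, at 85.3 and 4.8 CPM. The cells of the Ada-led sub-cluster were shallow, at a median of 1506 and 1454 UMIs, which is 0.344 and 0.519 of the median of their own mouse.

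To follow this along the villus, enterocytes of each mouse were split at the median of a score made from 7 tip genes and 10 bottom genes, none of them an adenosine gene. The split is not independent of the clusters. The enterocyte class is itself made of clusters, and the tip genes Krt20 and Klf4 are also leading genes of the Ada-led sub-cluster. Ada stood at 273 and 792 CPM on the tip side and 36.9 and 4.73 on the bottom side. The tip side was higher in both mice, by 3.93 on the log2 scale (SE 0.47, edgeR quasi-likelihood test, adjusted p = 4.54e-05). Ada was the single gene of the 9 called on the tip side, where 0.171% of the 11719 genes tested were called higher, and none was called on the bottom side, where 1.16% were called. With the mouse as a block, 340 in place of 156 genes were called in all, and the share of called genes that were higher on the tip side was 12.8% with edgeR and 25.5% with DESeq2. Without the Ada-led sub-cluster the difference was 1.78 (adjusted p = 0.0468). With only the 2 sides in the fit it was 4.3 (adjusted p = 0.175), and with clusters at resolution 0.4 it was 1.73 (adjusted p = 0.0818), so that the call was lost in both. Tip-side cells were shallower than bottom-side cells (4530 and 2051 against 5681 and 4062 UMIs), and the part of this difference in the result was not tested.

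Pnp (252 and 226 CPM on the tip side, 239 and 170 on the bottom side) and Adk (10 and 27.6 against 17.7 and 30.7) were not called along the same score, with log2 differences of 0.07 (SE 0.35) and -0.79 (SE 0.50). Adora2b had 17 UMIs on the tip side and 16 on the bottom side in all. Of the 50 other purine genes of a fixed list, 35 were tested here and 0 were called by edgeR, with 4 at an unadjusted p under 0.05 and 1 called by DESeq2. The median log2 difference was 0.43 over the 9 genes and -0.04 over all genes tested.

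**Figure D2:**
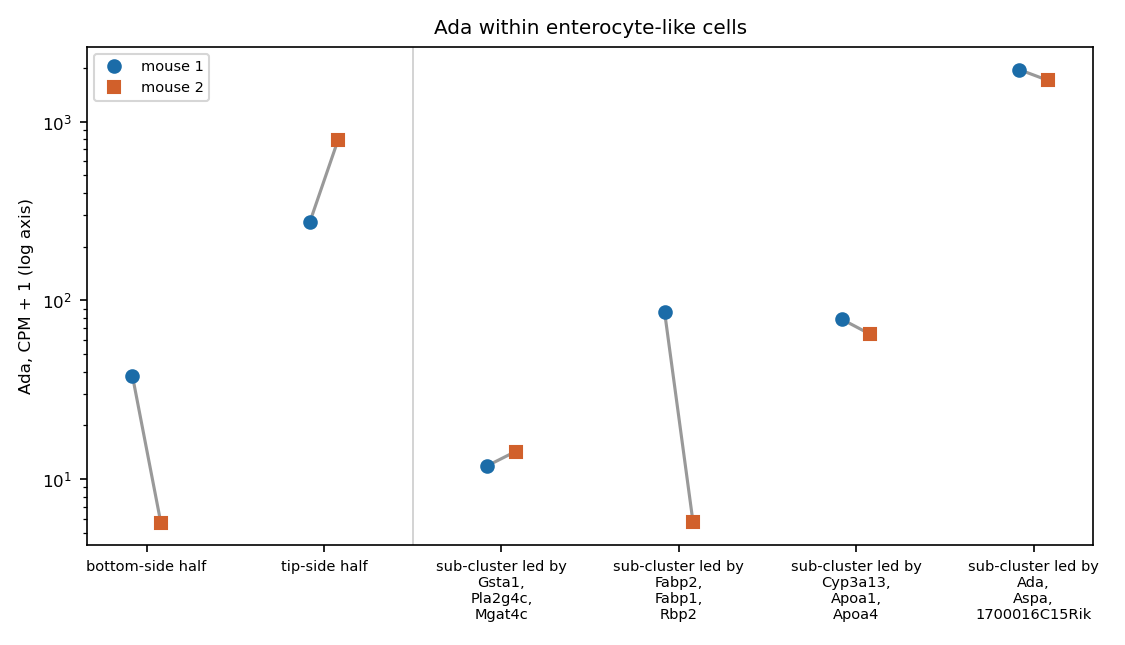
Ada level (CPM + 1, log axis) in the bottom-side and tip-side enterocytes and in 4 enterocyte sub-clusters, with mouse 1 as circles and mouse 2 as squares. The sub-cluster led by Ada and Aspa reads 1950 and 1700 CPM, and the bottom-side cells 36.9 and 4.73.

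Adk (chr14:21052574-21448569, plus strand) was highest in plasmacytoid dendritic cells, at 59.9 and 72.3 CPM, and in crypt cells, at 61.5 and 54.6, and these overlapped. Conventional CD4 T cells (38.1 and 58.4 CPM) overlapped with crypt cells, and plasma cells followed at 32.3 and 35.3. Enterocytes held 14.5 and 29.7 CPM, with a spread that covered dendritic and innate lymphoid cells. Unassigned T cells (5.31 and 3.41 CPM), gamma-delta T cells (3.55 and 4.76) and CD8 alpha-beta T cells (6.17 and 1.09) were lowest and overlapped. Crypt cells were deep, with a median of 11887 and 18151 UMIs, but the CPM scale divides by depth.

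Pnp (chr14:50931082-50965237, plus strand) was highest in enterocytes (245 and 189 CPM) and monocytes (198 and 222), which overlapped. Macrophages (135 and 161 CPM) and dendritic cells (155 and 134) came next, and crypt cells held 113 and 89.1. Gamma-delta and CD8 alpha-beta T cells lay between 21.3 and 26 CPM, conventional CD4 T cells held 45 and 7.3, and plasma cells were lowest at 8.44 and 6.2. The Pnp locus overlaps Pnp2 and a readthrough model on the same strand, so assignment of reads between them is uncertain, although none of 411 stretches of 90 bases at the end of Pnp was found in another gene. Pnp2 was read at 177 and 125 CPM in enterocytes, 20.9 and 36.4 in crypt cells and 5.16 or less in every leukocyte class. With Pnp and Pnp2 summed, the difference between crypt cells and enterocytes given below changed from -1.56 to -1.98 on the log2 scale.

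Other genes of purine breakdown and salvage were also high in enterocytes. Gda, whose enzyme deaminates guanine, held 813 and 1440 CPM there, 254 and 324 in monocytes and 69.8 and 88.9 in innate lymphoid cells, but 7.33 and 9.1 in crypt cells. Xdh, xanthine dehydrogenase, which makes uric acid, held 257 and 289 CPM in enterocytes and 6.77 and 10.9 in crypt cells. The salvage enzyme Aprt, which reuses adenine, stood at 1390 and 1460 CPM in enterocytes and 424 and 562 in crypt cells.

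**Figure D3:**
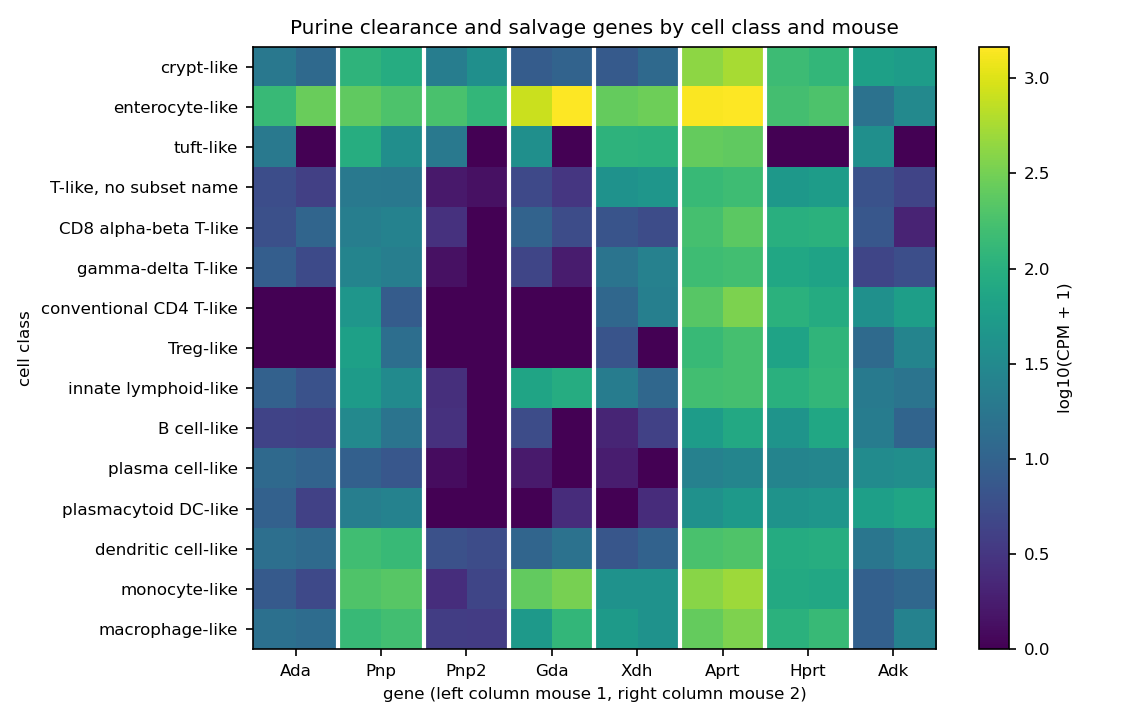
Levels of 8 purine clearance and salvage genes as log10(CPM + 1) by colour, in 15 cell classes (rows), with a column for mouse 1 and a column for mouse 2 per gene. Enterocytes are bright for Ada, Pnp, Pnp2, Gda and Xdh in both mice, while for Adk the crypt, plasmacytoid dendritic and conventional CD4 T cell rows are brightest.

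Adora2a (chr10:75316877-75334784, plus strand), a receptor that raises cyclic AMP, was read mostly in T cells. Treg cells held 62.3 and 26 CPM, from 13 UMIs in all, and unassigned T cells 39.7 and 40.4, inside that spread. Gamma-delta T cells held 26.8 and 27.1 CPM, also inside the spread of Treg cells but below unassigned T cells, and CD8 alpha-beta T cells held 16 and 17.5. Conventional CD4 T cells read highest of all classes in mouse 2 (43.8 CPM) but at 13.8 in mouse 1, a spread that met those of all these classes. Within the unassigned T cells, the sub-cluster led by the activation genes Egr3, Nr4a3, Ccl4 and Xcl1 held 76.6 and 77.8 CPM, above the 2 largest sub-clusters at 39.8 and 40.6 and at 32.5 and 39.3. Monocytes held 11.6 and 8.3 CPM. Enterocytes held 0.934 and 1.56 CPM, and crypt cells had no UMI, which allows up to 1.69 and 5.46 CPM.

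Adora2b (chr11:62248984-62266453, plus strand), its lower-affinity relative, was low everywhere and had a different order of classes, although monocytes held both receptors. Dendritic cells held 18.2 and 21.4 CPM (46 and 19 UMIs), monocytes 18 and 16.6 (45 and 42 UMIs) and enterocytes 6.77 and 6.25 (29 and 4 UMIs). The nearest values of dendritic cells and monocytes, 18.2 and 18, were within counting error of each other, enterocytes lay below both, and no other class exceeded 2.85 CPM. Macrophages had no Adora2b UMI in 393 and 188 cells, which allows up to 2.09 and 4.02 CPM, below the levels of monocytes and dendritic cells. The 4 named T cell subsets together had 1 UMI, and unassigned T cells had 1. Crypt cells had 1 UMI, against 33 in enterocytes. Dendritic cells and monocytes were also among the deeper classes, with median UMI counts of 8358 or more in each mouse, which changes the share of cells with a UMI but not the CPM scale.

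**Figure D4:**
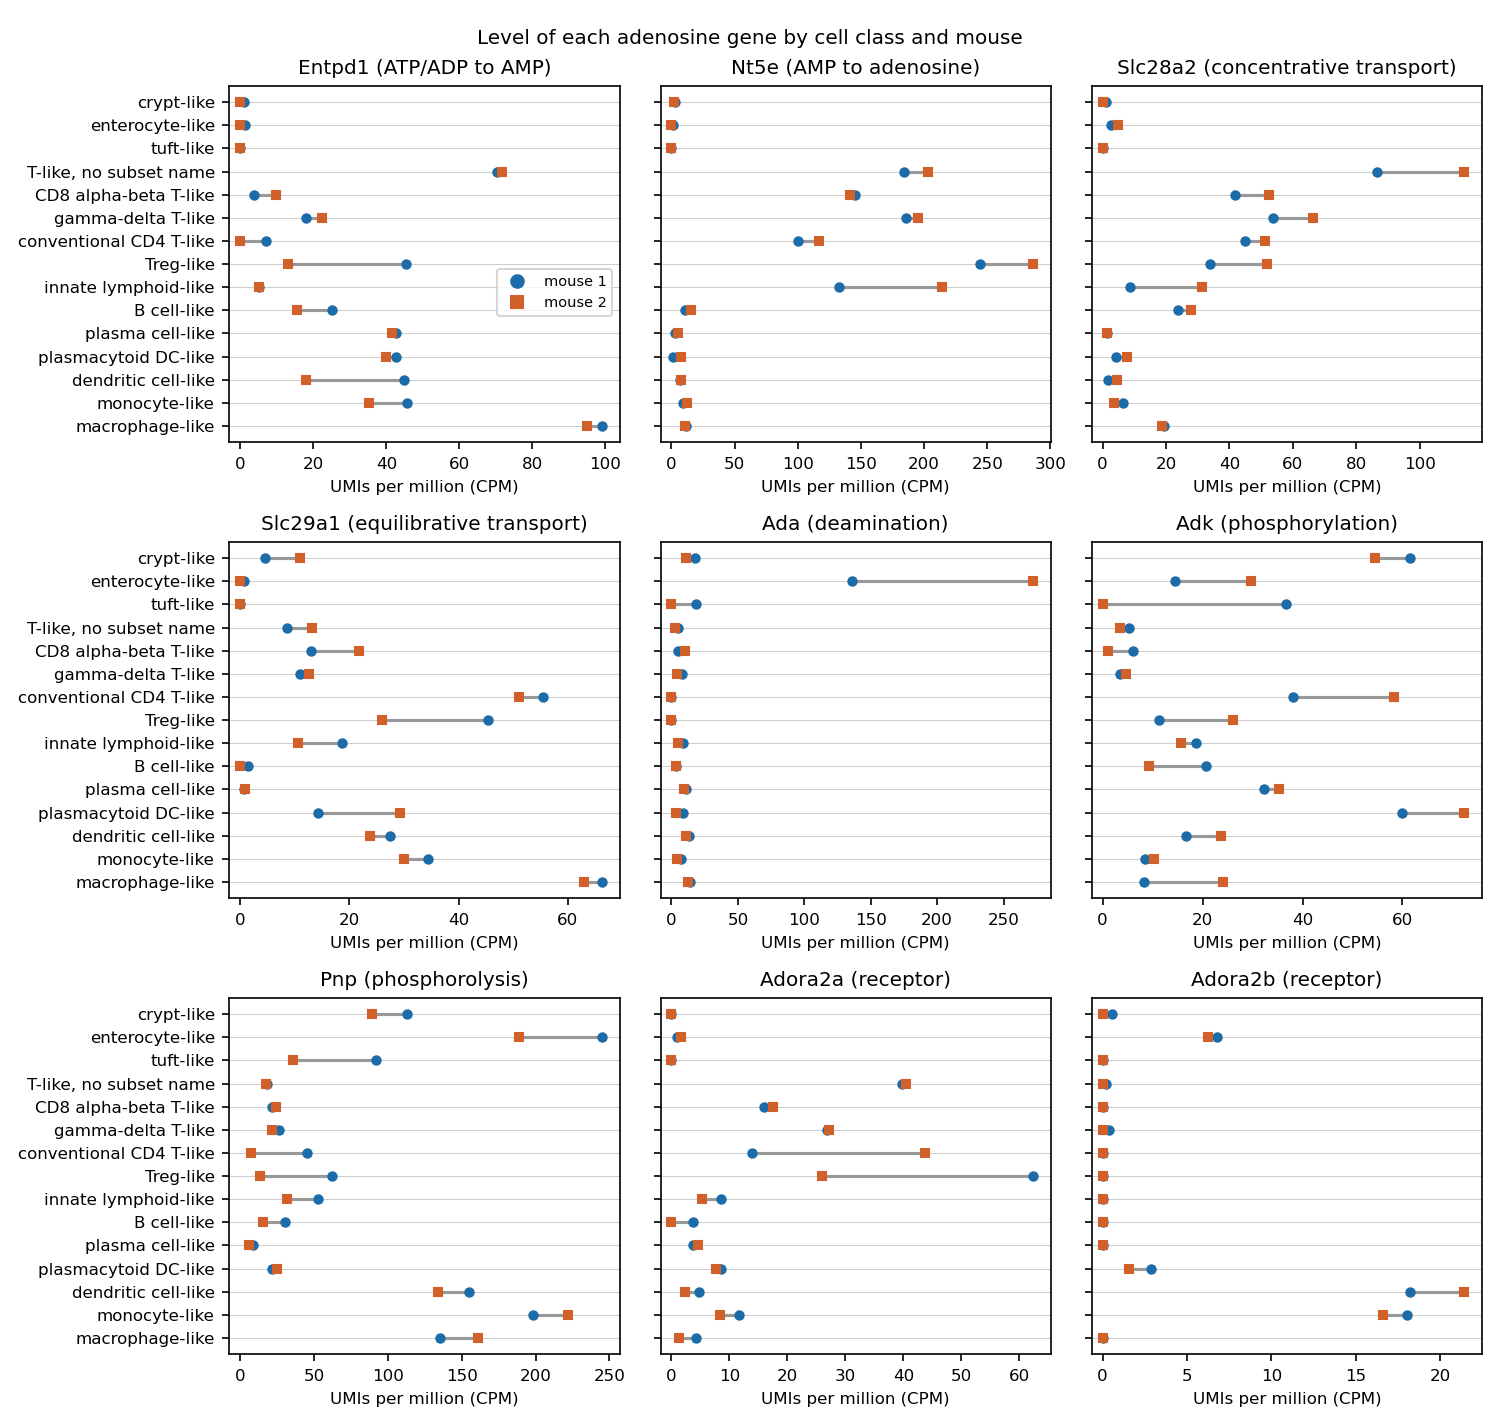
Level of each of the 9 genes (CPM, linear axes that differ between panels) in 15 cell classes, with mouse 1 as circles, mouse 2 as squares and a grey line between them. Ada stands at 136 and 272 CPM in enterocytes alone, Nt5e at 100 CPM or more in the 6 T and innate lymphoid classes, and Entpd1 and Slc29a1 are highest in macrophages.

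Differences between classes were tested with edgeR on UMIs summed per class and mouse, over all genes. The p-values measure the spread between the 2 mice within a class, pooled over all classes of the fit and not only those compared. Sums of the same mouse were treated as independent, and only 2 animals stand behind them. Log2 differences are on the scaling of the fit, which moved the median of all genes against plain CPM by -0.46 for crypt cells against enterocytes, -0.12 for Treg against conventional CD4 T cells, 0.34 for myeloid against T cells, 0.18 for the epithelium against leukocytes and -0.15 for the tip against the bottom side. Where a class was at 0 UMIs, or a side held few, counts or ratios of summed UMIs are given in place of a fitted fold change.

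Crypt cells against enterocytes compare the crypt compartment after Apc deletion with the differentiated epithelium. Of the 9 genes, 2 were higher in crypt cells, where 16.2% of the 11633 genes tested were called higher, and 4 were lower, where 25.3% were called lower. Ada was lower in crypt cells by 4.09 on the log2 scale (SE 0.39, adjusted p = 4.39e-08), and by 2.16 without the Ada-led sub-cluster (adjusted p = 0.000341). Pnp was lower by 1.56 (SE 0.34, adjusted p = 0.000671). Adora2b was lower, at 1 against 33 UMIs (adjusted p = 0.00262), and this call was lost without mouse 1 (adjusted p = 0.146). Slc28a2 was called lower from 2 against 14 UMIs (adjusted p = 0.0384), a call that was lost with DESeq2 (adjusted p = 0.131), without mouse 1 (adjusted p = 0.121) and without mouse 2 (adjusted p = 0.185). In a fit of only these 2 classes Slc29a1, Adora2b and Slc28a2 did not pass the filter on low counts, while Ada, Pnp and Adk were tested and called. Adk was higher in crypt cells by 1.17 (SE 0.39, adjusted p = 0.017), although without mouse 1 the difference was 0.43 (adjusted p = 0.739). Slc29a1 was higher, from 14 against 3 UMIs, a ratio of 9.89 with a counting interval of 2.76 to 53.7 (adjusted p = 0.00426), and the call was lost without mouse 2 (adjusted p = 0.064). Nt5e, Entpd1 and Adora2a, with 6, 2 and 0 UMIs in crypt cells, were not called. The median over the 9 genes was -1.56, beside -0.15 over all genes.

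Among the 50 other purine genes, 34 were tested and 14 were lower in crypt cells and 3 higher. By group, 6 of 9 tested clearance genes were lower and 1 higher, and 6 of 14 production genes were lower and 2 higher. Gda was lower by 7.56 (SE 0.62, adjusted p = 7.45e-09) and Xdh by 5.52 (SE 0.41, adjusted p = 8.16e-10). The alkaline phosphatase gene Alpi, whose enzyme can release nucleosides from nucleotides, held 843 and 89.1 CPM in enterocytes and was lower in crypt cells by 6.11 (SE 1.03, adjusted p = 6.4e-05). Akp3, of the same family, held 501 and 4.69 CPM in enterocytes, so the mice differed widely, and was called lower (adjusted p = 7.66e-05). Enpp3, an ectonucleotide pyrophosphatase, had no UMI in crypt cells against 32.5 and 39.1 CPM in enterocytes (adjusted p = 3.82e-05). The 3 genes higher in crypt cells were Nt5c3b, a cytosolic nucleotidase, Ahcy and the AMP deaminase gene Ampd2, and they are named after their values were seen. Ahcy held 31.6 and 36.4 CPM in crypt cells and 6.07 and 9.37 in enterocytes, a difference of 1.78 (SE 0.47, adjusted p = 0.00409).

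Treg cells against conventional CD4 T cells showed no call among the 9 genes with edgeR, where 1.28% of genes were called higher and 1.55% lower. At an unadjusted p under 0.05 there were 2, Nt5e and Entpd1, and DESeq2 called 1. Nt5e was higher in both mice (244 against 100 CPM and 286 against 117), with a log2 difference of 1.17 (SE 0.33, adjusted p = 0.0595). With the mouse as a block the difference was the same 1.17 and was called (adjusted p = 0.0313), and DESeq2 gave 1.28 (adjusted p = 0.0109). With the Ncr1-led cells joined to the conventional CD4 T cells it was 1.07 (adjusted p = 0.14). Entpd1 rested on 9 UMIs in Treg cells and 2 in conventional CD4 T cells, a ratio of 7.56 with a counting interval of 1.57 to 71.9 (adjusted p = 0.215). Adora2a was higher in the Treg cells of mouse 1 and lower in those of mouse 2. Ada and Adora2b had no UMI in either class. Of the other purine genes, 34 were tested, and P2ry10, a lysophospholipid receptor gene, was higher in Treg cells (227 and 299 CPM against 51.9 and 51.1, log2 difference 2.18, SE 0.39, adjusted p = 0.00219). Aprt was lower by 0.99 (SE 0.24, adjusted p = 0.0245). The share of called genes that were higher was 45.3% with edgeR and 55.4% with DESeq2.

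The CD8 alpha-beta and gamma-delta T cells, which in the gut lie largely in the epithelium, were then compared with conventional CD4 and Treg cells as a pair. None of the 9 genes was called higher in the first pair by edgeR, where 5.55% of genes were called higher, and 2 were lower, where 3.15% were. In all, 3 genes had an unadjusted p under 0.05 and DESeq2 called 2. Adk was lower by 2.56 (SE 0.67, adjusted p = 0.0176), and this call was lost without mouse 1 (adjusted p = 0.0826) and without mouse 2 (adjusted p = 0.297). Slc29a1 was lower by 1.63 (SE 0.35, adjusted p = 0.00454), and was lost without mouse 1 (adjusted p = 0.583), at 10% mitochondrial UMIs (adjusted p = 0.165) and at resolution 1.2 (adjusted p = 0.121). Ada was read at 59 UMIs against 0, in many fewer cells on the second side, and the counting interval of the ratio began at 1.02. Nt5e differed by 0.07 (SE 0.21), with 180 CPM over all cells of the first pair and 162 over those of the second, and Slc28a2 by 0.36 (SE 0.30). Of the 34 other purine genes tested, 2 were higher in the CD8 and gamma-delta cells. P2rx7, an ATP-gated channel gene, differed by 1.92 (SE 0.26, adjusted p = 4.16e-05), with 183 and 192 CPM in CD8 alpha-beta T cells against 41.5 and 29.2 in conventional CD4 T cells. Cd38, whose ectoenzyme consumes NAD, differed by 1.32 (SE 0.30, adjusted p = 0.00616). The medians were -0.12 over the 9 genes and 0.29 over all genes, and the share of called genes that were higher was 63.8% with edgeR and 32.6% with DESeq2.

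Myeloid cells (macrophages, monocytes and dendritic cells) against the 4 named T cell subsets separated 7 of the 9 genes. Of these, 4 were higher in myeloid cells, where 26.8% of genes were called higher, and 3 were lower, where 17.9% were. The unassigned T cells, the largest T cell class, were again on neither side. Their Entpd1 level (70.3 and 71.7 CPM) lay above that of monocytes (45.6 and 35.2) and dendritic cells (44.8 and 18). Pnp was higher by 2.80 (SE 0.22, adjusted p = 1.86e-10), Entpd1 by 2.42 (SE 0.29, adjusted p = 2.76e-07) and Slc29a1 by 0.90 (SE 0.20, adjusted p = 0.00056), the last not called without mouse 1 (adjusted p = 0.0885). Ada was also called (adjusted p = 0.00156), but its levels were low, at 9.42 against 5.36 CPM over all cells (100 and 59 UMIs, ratio 1.76, counting interval 1.26 to 2.47), Treg and conventional CD4 T cells were at 0, and the call was lost without mouse 1 (adjusted p = 0.112). Adk differed by 0.68 (SE 0.32, adjusted p = 0.0855), and was called with the Ncr1-led cells joined to the conventional CD4 T cells (adjusted p = 0.0165). Nt5e was lower in myeloid cells by 3.80 (SE 0.19, adjusted p = 1.37e-13), Slc28a2 by 2.61 (SE 0.26, adjusted p = 1.46e-08) and Adora2a by 2.09 (SE 0.30, adjusted p = 5.27e-06). Adora2b was read at 152 UMIs in myeloid cells and 1 in the T cell subsets. The edgeR fit gave no call for it, with 3 of the T cell subsets at 0 (adjusted p = 1), while DESeq2 did (adjusted p = 0.000342). The medians were 0.90 over the 9 genes and 0.18 over all genes.

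Of the other purine genes, 16 of 34 tested were higher in myeloid cells and 5 lower, with a median of 0.89. Sensing genes accounted for 7 of those higher and 2 of those lower among 9 tested, and clearance genes for 7 higher and 0 lower among 9. Gda was called higher (adjusted p = 1.07e-08), with the monocyte levels given above and no UMI in Treg and conventional CD4 T cells. The UDP receptor gene P2ry6 was at 109 and 142 CPM in macrophages and 88.1 and 82.2 in monocytes, against 1.23 or less in the named T cell subsets. P2ry12, an ADP receptor gene, was at 34.9 and 49.6 CPM in macrophages, and P2ry14, a receptor gene for UDP-sugars, at 43.9 and 50.9, and Treg and conventional CD4 T cells had no UMI of either. Lacc1, which encodes a purine-handling enzyme of macrophages, was at 87.1 and 127 CPM there and higher by 5.69 (SE 0.32, adjusted p = 5.82e-13).

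Crypt cells and enterocytes against the 12 leukocyte classes differed for all 9 genes with edgeR. In the epithelium 4 were higher, where 35.3% of genes were called higher, and 5 were lower, where 29.1% were. Ada was at 109 against 7.81 CPM over all cells, a ratio of 14 (counting interval 12.5 to 15.6, adjusted p = 1.54e-10). Pnp was higher by 2.11 (SE 0.17, adjusted p = 1.25e-10) and Adk by 1.35 (SE 0.22, adjusted p = 8.04e-06). Over all cells Adk was at 30.4 against 20.1 CPM, a ratio of 1.51 (counting interval 1.3 to 1.74). Plasmacytoid dendritic, conventional CD4 T and plasma cells were above enterocytes for Adk, and monocytes overlapped with enterocytes for Pnp. Adora2b was called higher (34 against 157 UMIs, ratio 2.05, counting interval 1.37 to 2.99, adjusted p = 0.0231), although dendritic cells and monocytes were above enterocytes, and the call was lost at 10% mitochondrial UMIs (adjusted p = 0.0551) and without integration (adjusted p = 0.0796). Entpd1 was lower by 4.29 (SE 0.51, adjusted p = 8.4e-08), Nt5e by 4.08 (SE 0.29, adjusted p = 1.94e-11), Slc28a2 by 3.10 (SE 0.35, adjusted p = 4.01e-08) and Slc29a1 by 2.63 (SE 0.35, adjusted p = 4.5e-07). Adora2a had 5 UMIs in the epithelium and 994 in leukocytes, a 21-fold lower level (counting interval 8.96 to 64.8, adjusted p = 1.69e-07). The fit weights each leukocyte class equally, so a gene read in few classes is averaged with classes that lack it. The medians were -2.63 over the 9 genes and -0.01 over all genes.

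Among the other purine genes, 14 of 34 were higher in the epithelium and 10 lower, shares near the 35.3% and 29.1% of all genes, and their median was -0.09 beside -0.01. Of the clearance genes, 7 of the 9 tested were higher and 1 lower. Pnp2 was higher by 7.0 (SE 0.35, adjusted p = 1.23e-13), Gda by 4.79 (SE 0.55, adjusted p = 6.85e-08) and Alpi by 6.62 (SE 1.01, adjusted p = 5.75e-06). Akp3 was called higher (adjusted p = 0.0017), with the spread between mice given above. P2ry10 was lower by 5.59 (SE 0.34, adjusted p = 1.25e-12). The production genes were divided, with 6 higher and 4 lower among 14 tested, and the 2 transport genes tested, Slc29a3 and Panx1, were both lower.

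**Figure D5:**
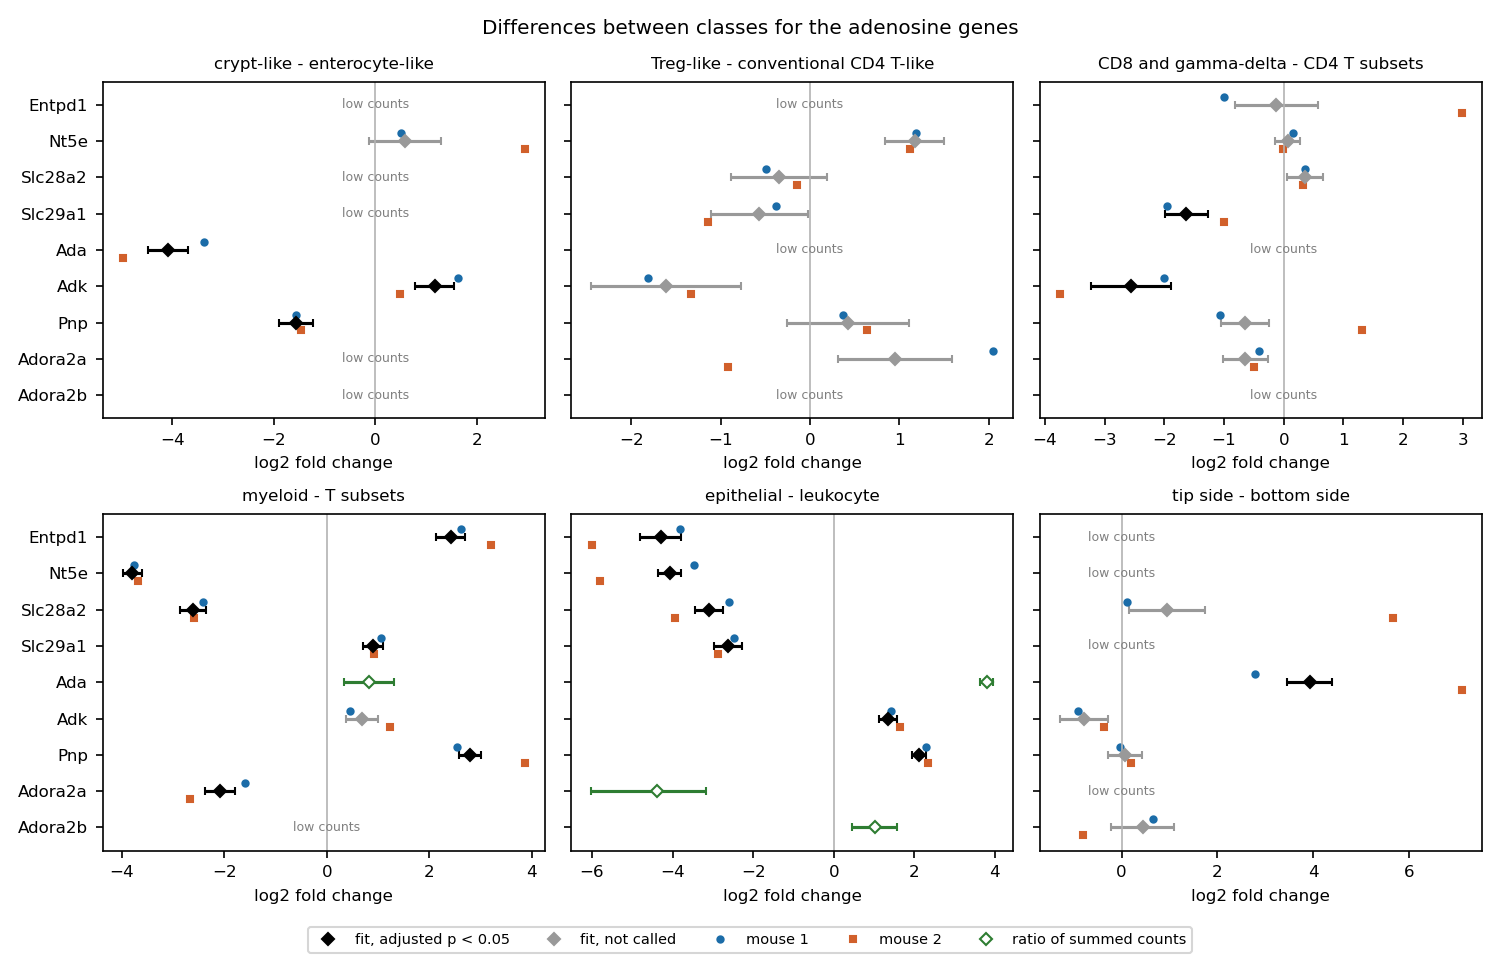
Log2 differences between classes for the 9 genes in the 6 comparisons, with the fitted value and its SE as filled diamonds (black where the adjusted p was under 0.05), mouse 1 as blue circles and mouse 2 as orange squares. Open diamonds give the ratio of summed UMIs with its 95% counting interval where a class was at 0, and genes with 3 UMIs or fewer on a side are marked as low counts. Myeloid cells against the named T cell subsets, without the unassigned T cells, show Pnp and Entpd1 to the right and Nt5e, Slc28a2 and Adora2a to the left in both mice.

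Across the 15 classes, each gene was compared with 10031 genes that had at least 100 UMIs in each mouse, by Pearson's r of log levels in each mouse, and the lower of both values is given. These values describe 15 classes that share libraries, depth and cell origin, and carry no test. The genes most like Nt5e were Skap1 (0.975), Fam189b (0.971) and Trbc2 (0.971). Those most like Slc28a2 were Smpd5 (0.913), Gimap4 (0.909) and Carmil2 (0.906), and those most like Adora2a were Dusp10 (0.899), Gzmb (0.86) and Abca2 (0.859). For Ada they were Mylk (0.804), S100g (0.802) and Exoc3l4 (0.783), for Pnp Snx3 (0.864), Atox1 and Cdkn1a, for Entpd1 Lat2 (0.845), Trf and Slc8b1, and for Slc29a1 Abracl (0.864), Canx and Batf. Adk had no close neighbour, the best being Tubb2b at 0.684. Among the genes themselves, Nt5e and Slc28a2 were most alike (0.871 and 0.887 in mice 1 and 2), followed by Nt5e and Adora2a (0.847 and 0.801), while Ada and Nt5e were opposed (-0.657 and -0.429). Adora2b had under 100 UMIs in mouse 2 and was not compared.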

How the data were processed

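The authors deposited raw UMI counts per gene and cell for 2 libraries (Cell Ranger 6.1.2, genome build mm10 in the submitters' processing notes). Total counts were 85670711 and 38716743 UMIs. Cells were filtered as the report states, integrated and clustered in Seurat 5.3.0 (2000 variable features without the 9 genes and the 50 other purine genes, 30 dimensions, resolution 0.8), and epithelial and T clusters were clustered again. Clusters were named from marker lists (at least 3 markers), with naming thresholds set after the clusters were seen. Doublets were kept, and an alternative removed the 8% of cells with the highest Scrublet scores (scanpy 1.11.5). The members and lists were chosen with earlier results of these data known. Purine genes named beside the 9 were the 5 or fewer with the largest log2 difference among those called with one sign in both mice, with exceptions stated.

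UMI counts summed per class and mouse were tested with edgeR 4.0.16 (quasi-likelihood test, TMM, two-sided, Benjamini-Hochberg over all genes tested, call at adjusted p under 0.05) in 1 fit of 15 classes, with DESeq2 1.42.0 as an alternative. The scripts were tested on simulated data for crypt cells against enterocytes over 11247 genes, where 47.4% of 95 genes changed 4-fold and 4.12% of 97 changed 2-fold were recovered, with 0.0995% of unchanged genes called. Sums of the same number come from the same mouse. Their deviations from the class means correlated over 0.1 in 79 of 105 pairs of classes (median 0.164). Intervals are exact 95% intervals, and the limit for a count of 0 is 3 UMIs. Gene coordinates are from GENCODE on GRCm38.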

Additional observations from a re-analysis of the deposited data

Results flagged for a closer look

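Groups of cells that had no class name, and so entered no comparison, held 6 of the genes above the level of the named classes they were set against. A cycling group led by Hist1h3c and Hmmr and holding Mki67 among its leading genes (41 and 46 cells) read Ada at 44 CPM in mouse 1 and 21.4 in mouse 2, against at most 13.9 and 12.1 in a named leukocyte class. A T sub-cluster led by Dapl1, with Lef1 and Ccr7 among its leading genes and both Cd4 and Cd8b1 seen (94 and 23 cells), read Adk at 51.8 and 83.7 CPM, against at most 38.1 and 58.4 in a named T cell class. A shallow T sub-cluster (47 and 21 cells) read Nt5e at 301 and 335 CPM from 13 and 5 UMIs, against at most 244 and 286, and its counting intervals (160 to 515 and 109 to 782) covered those levels.

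An epithelial sub-cluster in which most cells also held Ptprc, the general leukocyte gene (59 and 25 cells), read Nt5e at 46.4 and 60.7 CPM, Entpd1 at 24.1 and 28 CPM and Slc28a2 at 22.3 and 18.7 CPM. In it 71.4% of the cells held Cd3e, a T cell marker, and 39.3% held Trdc. Its median depth was 1.96 and 2.26 times that of all kept cells of the mouse. These levels therefore cannot be credited to epithelial cells. In the named epithelial classes Nt5e reached at most 2.82 and 1.82 CPM. A sub-cluster with markers of several secretory types, led by Chgb and Reg4 (31 and 34 cells), read Slc29a1 at 30.8 and 51.5 CPM, against at most 4.51 and 10.9 in the named epithelial classes. None of these differences was tested.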

How the results depend on the processing

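No difference of the 9 genes that was called changed sign under an alternative. Over all genes, the share of calls that were higher moved across the middle between edgeR and DESeq2 for CD8 with gamma-delta against CD4 T cells (63.8% and 32.6%), Treg against conventional CD4 T cells (45.3% and 55.4%) and epithelium against leukocytes (54.8% and 49.3%). The number of the 9 genes called between CD8 with gamma-delta T cells and CD4 T cells was 2, against 1 at 10% mitochondrial UMIs, 1 at resolution 1.2 and 0 to 1 with a mouse left out. Between crypt cells and enterocytes it was 6, against 3 in a fit of only the compared classes, where 3 of the 9 genes were tested, and 3 to 4 with a mouse left out. Between Treg and conventional CD4 T cells it was 0, against 1 with DESeq2 and 1 under the replicate block (mouse), and 0 with either mouse left out. Along the villus score it was 1, against 0 in a fit of only the compared classes, 0 at resolution 0.4 and 1 with either mouse left out. Between myeloid and T cells it was 7, and 5 to 7 with a mouse left out. In the epithelium against leukocytes all 9 kept their direction in each mouse alone, with no test. The class with the highest level was the same for 7 to 8 of 9 genes in a single mouse. A lone mouse was assumed to vary like the other classes. The replicate block changed no other count of the 9 genes by over 1.5 times. Calls over all genes between Treg and conventional CD4 T cells were 329, against 86 at 10% mitochondrial UMIs, 41 at resolution 1.2, 216 with only the compared classes, 75 with the Ncr1-led cells joined, 122 without mouse 1 and 35 without mouse 2. Between CD8 with gamma-delta and CD4 T cells they were 1012, against 642 at resolution 1.2, 157 without mouse 1 and 283 without mouse 2. Along the villus score they were 156, against 340 with the block, 267 with DESeq2, 388 for the outer ends of the score, 13 with only the compared classes and 34 without mouse 2. Without mouse 1, crypt calls fell from 4818 to 2229 and myeloid calls from 5197 to 2921. The causes were not tested. Joining or leaving out sub-clusters was chosen after seeing the data. Not run, for want of cells or classes, were resolution 0.4 and no integration for both T cell comparisons, no integration for myeloid against T cells, and T subsets by transcripts. Depth limits the low genes, above all Adora2b with 67 UMIs in mouse 2.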

Other observations

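Of the 1412 and 1810 barcodes with 5% or more mitochondrial UMIs, the 1300 in mouse 1 and 1692 in mouse 2 that passed the other filters also held UMIs of the 9 genes. Nt5e stood at 37.3 CPM in those of mouse 1 and 168 in those of mouse 2, and Slc28a2 at 30.8 and 68. Ada was the reverse, at 45.1 and 7.34 CPM. Entpd1 was at 40.6 and 42 CPM. The removed barcodes were not assigned to classes, so these values cover a mixture of cells.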
